A study of Mus musculus with 12 samples.

Results

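Chemokine ligands and their receptors were followed in left ventricle RNA of mice after myocardial infarction. Members were all protein-coding genes of the count table with a symbol that began with Ccl, Cxcl, Ccr or Cxcr and a digit, which gave 54 of 56748 genes. They comprised 37 ligands and 17 receptors. A filter on low counts left 31 members for testing, 22 ligands and 9 receptors. The other 23 members are given by their summed counts.

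The study used wild-type C57BL/6J mice in 3 groups of 4 libraries. Each mouse was injected through the tail vein with AAV9, an adeno-associated viral vector that reaches heart muscle. The sham group received the control vector and sham surgery. The infarction group received the control vector and ligation of the left anterior descending coronary artery. The Irx3 group received AAV9-Irx3, which carries the homeobox transcription factor gene Irx3, and the same ligation. Tissue was taken 14 days after surgery, and polyadenylated RNA was sequenced. Sham surgery was paired with the control vector in these libraries, so the vector can be compared in infarcted hearts only. The promoter of the vector is not given in the sources used here, nor is the age of the mice. The labels name cardiomyocytes as the cell type, but fibroblast markers and macrophage markers were present in every library, so the values cover more than that cell type. In such tissue, fewer cells of a type and less RNA per cell cannot be told apart.

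Chemokines are small secreted proteins that bind seven-helix receptors coupled to inhibitory G proteins and draw leukocytes along a gradient. Inflammatory members are induced in injured tissue, where CCR2 ligands draw monocytes, CXCR2 ligands draw neutrophils and CXCR3 ligands draw activated T cells and NK cells. Homeostatic members such as Cxcl12 and Ccl21a are made at rest by stromal or endothelial cells. After infarction, these signals shape the order in which leukocytes enter and leave the heart.

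Totals were 13352604 to 19236721 counts per library. Irx3 itself was at 24.5 ± 2.65 (SD, n = 4) CPM, a count scaled to the depth of its library, in sham, 23.1 ± 6.89 CPM after infarction and 393 ± 111 CPM in the Irx3 group. The log2 fold change of Irx3 was 4.09 between the infarcted groups (edgeR adjusted p = 1.48e-06), so the transcript followed the labels. Mitochondrial transcripts took 4.496% to 8.22% of counts in sham, 0.926% to 5.64% after infarction and 10.4% to 19.0% in the Irx3 group. Removing mitochondrial genes from the table left all 26, 12 and 26 member calls of the 3 contrasts in place. Cardiomyocyte markers summed to 79335 to 92012 CPM in sham, 17639 to 50696 CPM after infarction and 25518 to 40862 CPM in the Irx3 group. Infarction library 4 had the lowest cardiomyocyte sum of all 12 libraries, and it was the highest library of its group for 26 of 31 members.

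Infarction was accompanied by higher transcript levels of most chemokine ligands and receptors. Under the control vector, 24 of 31 members rose and 2 fell against sham (edgeR, Benjamini-Hochberg adjusted p under 0.05 over 15742 genes). Over all genes tested, 26.3% rose and 22.4% fell in this contrast, 48.7% in either direction. Among ligands 16 of 22 rose and 2 fell, and among receptors 8 of 9 rose and 0 fell. The median log2 fold change was 3.26 over members and 0.01 over all genes tested. The groups did not overlap for 17 members that were higher and 1 that was lower, against 24.5% and 22.8% of all genes tested.

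A smaller group of members differed between the infarcted groups, and 8 of them rose both after infarction and again with the Irx3 vector. Against infarction with the control vector, 10 of 31 members rose and 2 fell, beside 25.2% and 24.1% of all genes tested. The share of members called, 12 of 31, did not exceed that of all genes, of which 49.3% were called in either direction. Their median log2 fold change was 0.54, beside 0.00 for all genes tested. Groups did not overlap for 7 members that were higher and 1 that was lower, while 22.1% and 18.9% of all genes did so. The members that rose included Ccl2, Ccl7, Ccl12, Ccl6, Cxcl9, Cxcl10, Ccl25, Ccl27a and Ccr2, and the members that fell were Cxcr4 and Ccl5. Set against sham, infarcted hearts with the Irx3 vector had 26 of 31 members higher and 0 lower, beside 35.2% and 27.7% of all genes, 62.9% in either direction. Between those groups 21 members were higher without overlap and 0 lower, beside 33.2% and 27.6% of all genes. The 3 contrasts share libraries, so their values stand side by side only.

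Transcripts low in GC had higher levels in the Irx3 group, in members and in all genes alike. Across the 31 members, the Spearman correlation of the log2 fold change between the infarcted groups with transcript GC content was -0.61, and across 15186 genes it was -0.65, a description over genes that share libraries. The same correlation for infarction against sham was -0.05 over members and 0.04 over all genes. Members ran from 39.1% GC (Ccr1) to 58.0% (Ccl27a), with a median of 45.6% beside 49.8% for all genes tested. When a smooth GC term was fitted in each library, 5 members rose and 1 fell with the Irx3 vector, beside 14.1% and 13.3% of all genes, 27.4% in either direction. The members that rose under this correction were Ccl7, Ccl2, Cxcl9, Ccl6 and Ccl27a, and the one that fell was Cxcr4. Counts for infarction against sham were 24 and 2 with the correction, as without it, beside 30.6% and 22.2% of all genes (52.7% in either direction). For the Irx3 group against sham they were 23 and 0, beside 33.1% and 21.5% of all genes (54.7% in either direction). GC-corrected values are therefore given beside each member called between the infarcted groups. With the correction 0 further members were called in that contrast.

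**Figure D1:**
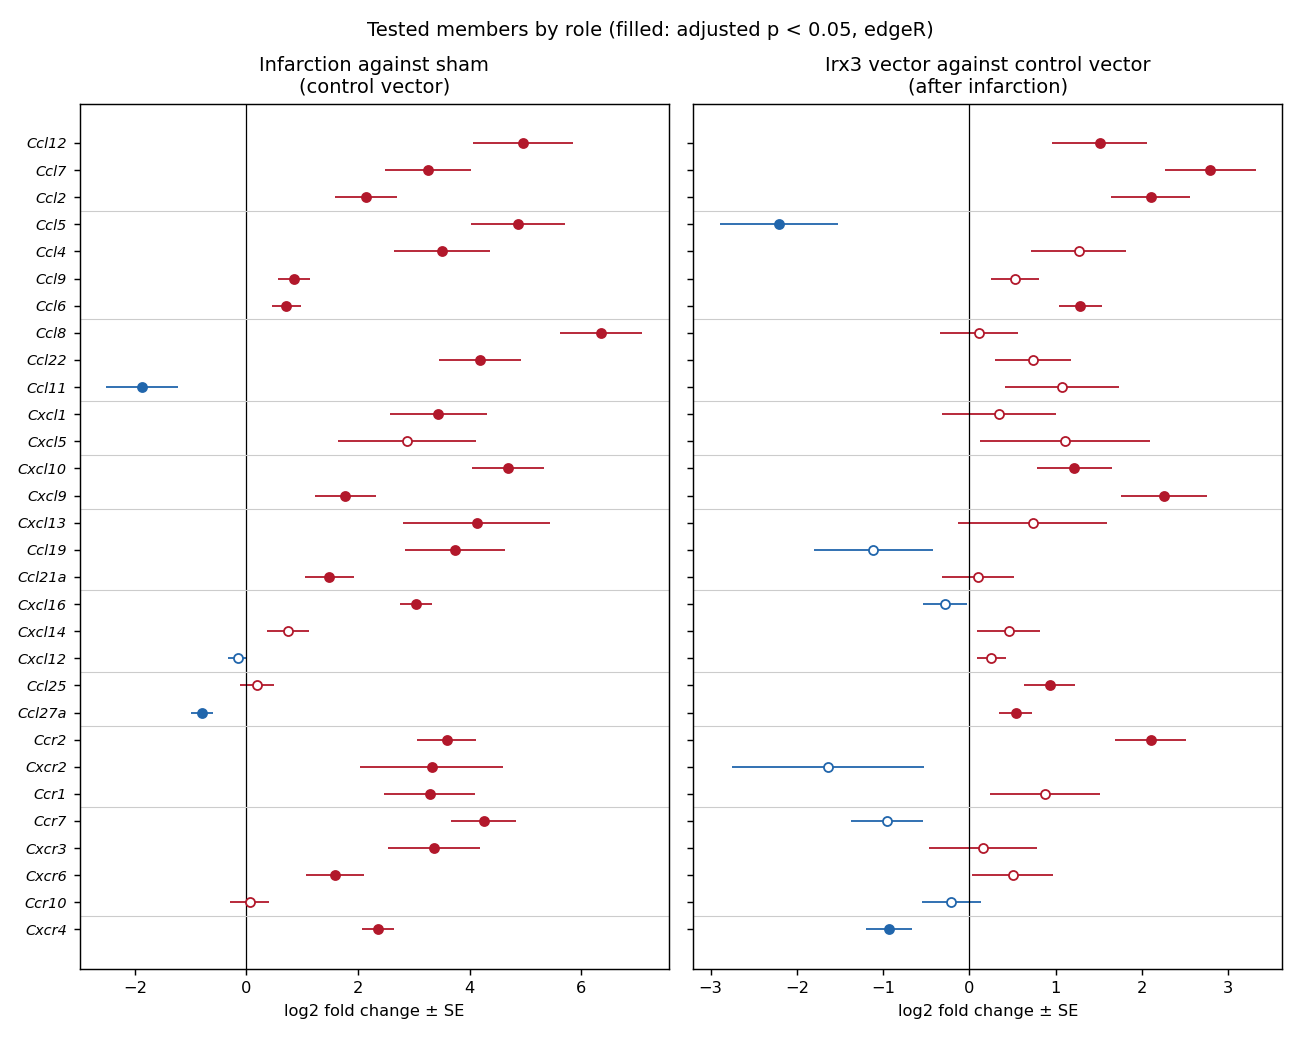
Log2 fold change ± SE of 30 of the 31 tested members, grouped by role, for infarction against sham under the control vector (left) and for the Irx3 vector against the control vector after infarction (right). The horizontal scales of the panels differ. Filled points passed an edgeR adjusted p of 0.05: 25 on the left, of which 23 were higher, and 11 on the right, of which 9 were higher.

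The ligands of CCR2, the receptor that brings inflammatory monocytes out of the bone marrow and into tissue, rose after infarction and rose again with the Irx3 vector. Ccl2, also known as monocyte chemoattractant protein, was at 0.351, 1.13, 0.205 and 0.139 CPM in the 4 sham libraries. It was at 2.42, 0.915, 1.42 and 3.51 CPM after infarction and at 8.10, 6.46, 12.4 and 8.89 CPM in the Irx3 group. Every Irx3 library lay above every infarction library, while sham library 2 overlapped the infarction group. The log2 fold change of Ccl2 was 2.14 ± 0.56 (SE) for infarction against sham (edgeR adjusted p = 0.00643). Between the infarcted groups it was 2.10 ± 0.46 (edgeR adjusted p = 0.00235), and 1.51 after GC correction (adjusted p = 0.0393).

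Ccl7, a second CCR2 ligand, had the largest log2 fold change of any tested member between the infarcted groups. Its levels were 0.0702, 0.377, 0 and 0 CPM in sham, 1.03, 0.488, 0.911 and 2.27 CPM after infarction, and 6.22, 5.79, 13.3 and 7.68 CPM in the Irx3 group. The 3 groups formed 3 separate ranges. Ccl7 rose by a log2 fold change of 3.26 ± 0.77 after infarction (edgeR adjusted p = 0.0037), which became 5.29 without sham library 2. It rose by a further 2.79 ± 0.53 with the Irx3 vector (edgeR adjusted p = 0.000891), or 2.03 after GC correction (adjusted p = 0.0175).

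Ccl12, the third CCR2 ligand, was nearly silent in sham, at 0, 0.188, 0 and 0.0695 CPM. After infarction it was at 1.39, 2.32, 1.88 and 3.67 CPM, and in the Irx3 group at 3.65, 4.69, 15.6 and 2.36 CPM. One Irx3 library stood far above the others of its group, and the infarcted groups overlapped. The rise after infarction was 4.96 ± 0.89 on the log2 scale (edgeR adjusted p = 0.000641). The difference between the infarcted groups, 1.51 ± 0.55 (edgeR adjusted p = 0.0361), was not called after GC correction, at 0.67 (adjusted p = 0.402), and became 0.64 without Irx3 library 3 (adjusted p = 0.262). It also lost its call without infarction library 1, 2 or 3, at adjusted p values of 0.0981, 0.063 and 0.0842.

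The receptor Ccr2 followed its ligands in order of groups. Sham libraries were at 0.140, 0.816, 0.751 and 0.487 CPM, infarction libraries at 4.22, 6.16, 4.61 and 12.04 CPM, and Irx3 libraries at 34.2, 12.5, 41.6 and 27.9 CPM. No group overlapped another, although the lowest Irx3 library was close to infarction library 4. Ccr2 rose 12.1-fold after infarction (log2 fold change 3.59 ± 0.52, edgeR adjusted p = 0.000179). It was a further 4.29-fold higher with the Irx3 vector (2.10 ± 0.41, edgeR adjusted p = 0.0011). With a GC content of 39.4%, Ccr2 was among the members most affected by the correction, which left a difference of 0.91 (adjusted p = 0.146).

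Monocyte and macrophage markers did not follow Ccr2 between the infarcted groups before GC correction, after which Ccr2 itself was not called. All 12 of 12 macrophage and monocyte markers rose after infarction, and their summed level was 456 to 576 CPM in sham and 1418 to 3255 CPM after infarction. In the Irx3 group the sum was 925 to 1745 CPM. Of the 12, 0 were higher and 6 lower than after infarction with the control vector, beside 25.2% and 24.1% of all genes. After GC correction 0 were higher and 1 lower, beside 14.1% and 13.3%. None of these markers was at 0 in any library. Among 5 markers of inflammatory monocytes, 0 rose and 1 fell with the Irx3 vector before GC correction, beside the same 25.2% and 24.1% of all genes. That gene was Plac8, at -1.78 on the log2 scale (edgeR adjusted p = 0.0245). The part of these cells in the chemokine values was not tested.

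**Figure D2:**
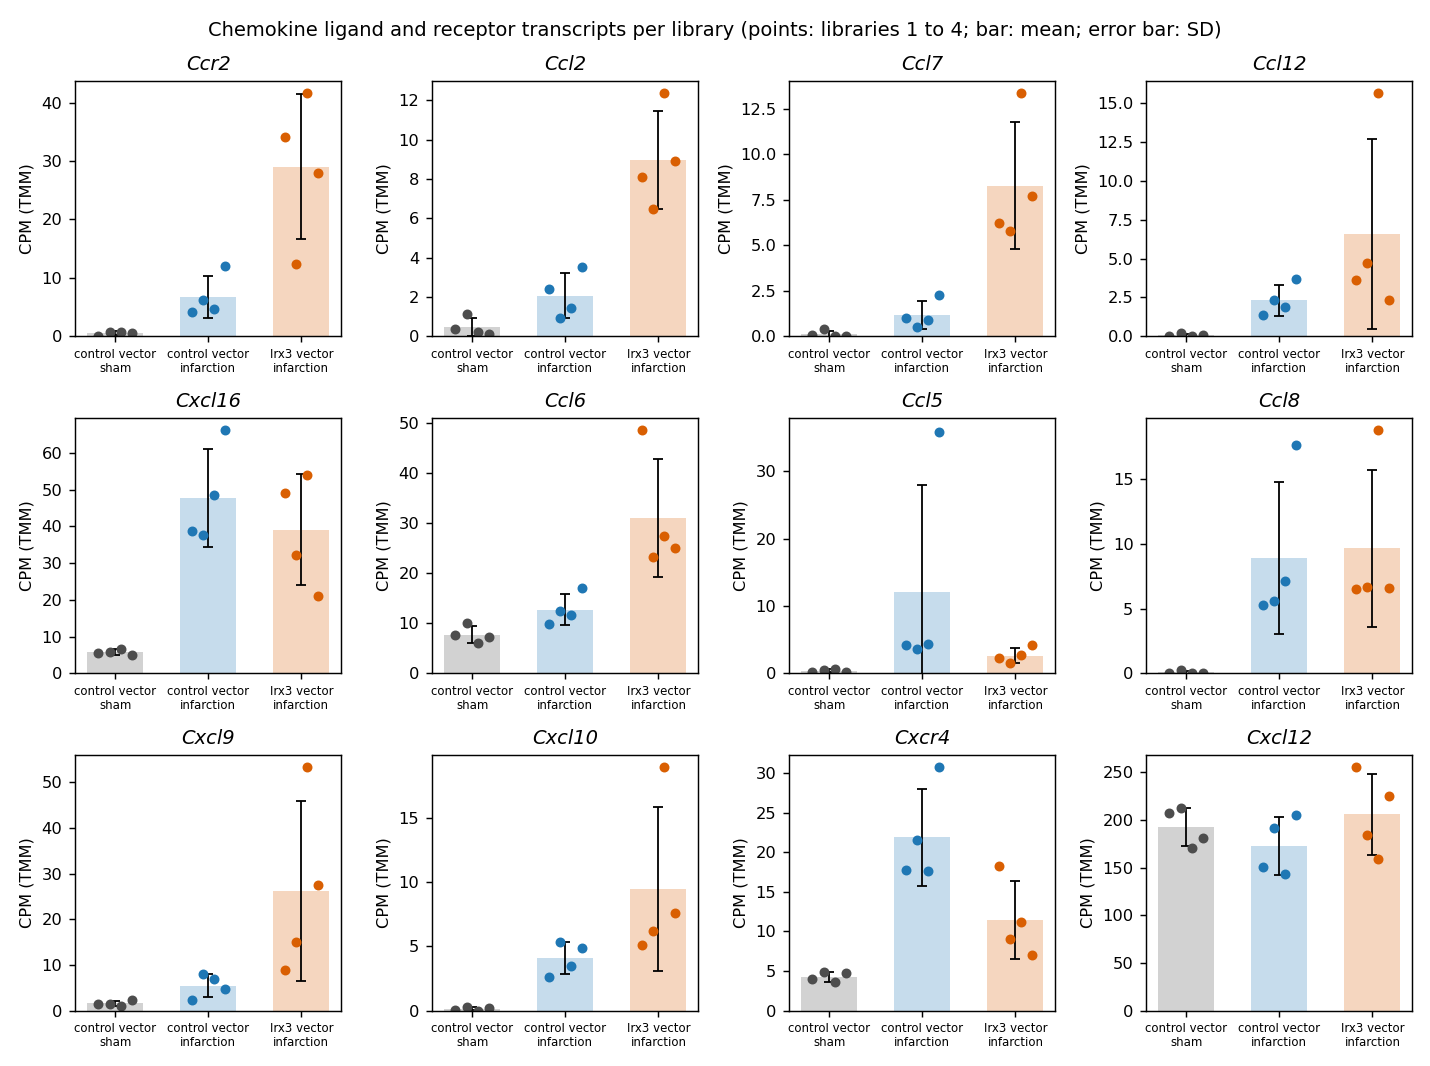
CPM (TMM-scaled, linear axis from 0) of 12 members in each library, with 4 points per group, bars at the group mean and error bars of 1 SD. Ccr2, Ccl7 and Ccl6 sit higher in all 4 Irx3 libraries than in any infarction library, Ccl5 is set by infarction library 4 at 35.9 CPM, and Cxcl12 lies at 144 to 255 CPM in all 12 libraries.

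A further group of CC ligands, which act on monocytes, macrophages and activated T cells, did not move as one. Of its 4 tested members, Ccl4, Ccl5, Ccl6 and Ccl9, all 4 rose after infarction. With the Irx3 vector 1 rose (Ccl6), 1 fell (Ccl5) and Ccl4 and Ccl9 did not pass the test. Ccl6, a myeloid CCR1 ligand, was already present in sham at 7.58, 10.1, 6.07 and 7.23 CPM. It was at 9.83, 12.4, 11.7 and 17.0 CPM after infarction and at 48.5, 23.3, 27.4 and 24.9 CPM in the Irx3 group. The Irx3 libraries all lay above the infarction libraries, whereas sham and infarction overlapped by 1 library each. The log2 fold change between the infarcted groups was 1.28 ± 0.25 (edgeR adjusted p = 0.00105) and 0.85 after GC correction (adjusted p = 0.0334). The rise after infarction was small, 0.71 ± 0.25 (edgeR adjusted p = 0.0323). It was not called without sham library 1, 3 or 4, infarction library 2, 3 or 4, or Irx3 library 3, with values of 0.48 to 0.70 in those fits.

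Ccl9, a close relative of Ccl6, was at 10.2, 10.4, 5.39 and 8.27 CPM in sham, 11.5, 15.4, 15.03 and 19.9 CPM after infarction, and 36.7, 17.0, 19.1 and 16.4 CPM in the Irx3 group. Irx3 library 1 stood apart, and the remaining Irx3 libraries lay within the upper part of the infarction range. Ccl9 rose by 0.85 ± 0.28 on the log2 scale after infarction (edgeR adjusted p = 0.0236), a call that ended without sham library 3 or 4 or infarction library 2, 3 or 4 (values of 0.64 to 0.83). Between the infarcted groups the difference was 0.53 ± 0.28 (edgeR adjusted p = 0.128), and -0.28 after GC correction.

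Ccl5, made by T cells, NK cells and macrophages, went against the others. It was at 0.281, 0.502, 0.614 and 0.209 CPM in sham. After infarction it was at 4.17, 3.60, 4.38 and 35.9 CPM, and with the Irx3 vector at 2.22, 1.48, 2.67 and 4.18 CPM. A single infarction library held most of the Ccl5 of its group. The rise after infarction was 4.87 ± 0.85 on the log2 scale (edgeR adjusted p = 0.000536) and 3.24 without infarction library 4 (adjusted p = 7.56e-05), so the rise did not rest on that library. The fall with the Irx3 vector was -2.21 ± 0.69 (edgeR adjusted p = 0.0171). It became -0.63 without infarction library 4 (adjusted p = 0.144), -2.002 without Irx3 library 2 (adjusted p = 0.0545) and -1.84 after GC correction (adjusted p = 0.0607), none of which passed. DESeq2 gave no adjusted p for Ccl5 in any of the 3 contrasts, so its missing calls are not failed tests.

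Ccl4, a macrophage inflammatory protein, was rare, with 3 counts in the sham group, 47 after infarction and 116 in the Irx3 group. Scaled to depth, these gave ratios to sham of 12.7 (95% counting interval 4.10 to 64.0) and 31.5 (10.5 to 155), which cover counting error only. The difference between the infarcted groups was 1.27 ± 0.55 (edgeR adjusted p = 0.0709). It passed only when Irx3 library 4 was left out, at 1.51 (adjusted p = 0.0368). Ccl3, its neighbour in the genome and in function, had 0, 10 and 36 counts in the 3 groups, at least 9.78-fold higher in the Irx3 group than in sham, with sham set to a summed floor of 3 counts.

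Ccr1, a receptor of monocytes and other myeloid cells, was lifted by 1 infarction library. Its levels were 0.140, 0.879, 0 and 0.209 CPM in sham, 1.18, 1.59, 1.37 and 8.37 CPM after infarction, and 7.80, 4.45, 5.28 and 5.55 CPM in the Irx3 group. Every library of the Irx3 group exceeded infarction libraries 1 to 3, and infarction library 4 exceeded them all. The rise after infarction was 3.28 ± 0.82 (edgeR adjusted p = 0.00508), and 2.03 without that library (adjusted p = 0.0147). Between the infarcted groups the difference was 0.88 ± 0.64 (edgeR adjusted p = 0.272). Without infarction library 4 it was 2.08 and passed (adjusted p = 0.0044), whereas after GC correction with all libraries it was -0.41.

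Ligands of CCR3, CCR4 and CCR8, receptors of eosinophils and T cell subsets, split into a strong rise and a fall. Ccl8, in mice a ligand of CCR8, had the largest log2 fold change of any tested member after infarction. It was at 0, 0.251, 0.0683 and 0.0695 CPM in sham, at 5.30, 5.55, 7.12 and 17.6 CPM after infarction, and at 6.52, 6.66, 18.7 and 6.61 CPM in the Irx3 group. The infarcted groups covered the same range, each with 1 high library. Ccl8 rose by 6.36 ± 0.73 on the log2 scale (edgeR adjusted p = 4.42e-05), and the difference between the infarcted groups was 0.11 ± 0.45 (edgeR adjusted p = 0.854). Ccl22, a CCR4 ligand of dendritic cells and macrophages, rose from 2 counts in the sham group to 54 after infarction and 92 in the Irx3 group, ratios to sham of 22.0 (95% counting interval 5.79 to 186) and 37.5 (10.1 to 314).

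The eotaxins, which bind CCR3 on eosinophils, went the other way. Ccl11 was at 1.19, 0.440, 1.23 and 0.626 CPM in sham, 0.154, 0.244, 0 and 0.517 CPM after infarction, and 0.494, 0.335, 0.436 and 0.760 CPM in the Irx3 group. All groups overlapped at these low levels. The fall after infarction was -1.87 ± 0.64 on the log2 scale (edgeR adjusted p = 0.0266). That call ended without sham library 1 (-1.69), sham library 3 (-1.67) or infarction library 1 (-1.77). With the Irx3 vector the difference was 1.07 ± 0.66 (edgeR adjusted p = 0.194), and it passed only without infarction library 4, at 1.86 (adjusted p = 0.0471).

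Ccl24, the second eotaxin, failed the filter on low counts and was chosen for description after its values were seen. It had 18, 8, 12 and 20 counts in the sham libraries, 1, 1, 2 and 3 after infarction, and 5, 8, 4 and 6 in the Irx3 group. The sham and infarction groups did not overlap. In a fit with no filter, the log2 fold change of Ccl24 for infarction against sham was -3.27 (edgeR adjusted p = 0.000365).

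CXCR2 ligands, the neutrophil attractants, varied widely between libraries of 1 group. Cxcl1 was at 0.0695 to 0.314 CPM in sham, 0.427 to 5.68 CPM after infarction and 0.988 to 4.58 CPM in the Irx3 group. It rose by 3.44 ± 0.87 on the log2 scale after infarction (edgeR adjusted p = 0.00566), with no overlap of the groups. Cxcl5 was at 0, 1.32, 0 and 0 CPM in sham and at 0.875, 1.34, 1.08 and 6.97 CPM after infarction, a difference that did not pass at 2.88 ± 1.24 (edgeR adjusted p = 0.0695). Without sham library 2, the one sham library with Cxcl5, the difference passed (adjusted p = 0.0183). Against sham, the Irx3 group was higher in Cxcl5 by 3.98 ± 1.23 (edgeR adjusted p = 0.0122), but not after GC correction (3.16) and with a value of 9.58 without sham library 2.

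Cxcl2 and Cxcl3 were too sparse to be tested. Cxcl2 had 2, 8, 3 and 85 counts in the infarction libraries and 73, 11, 7 and 6 in the Irx3 libraries. Cxcl3 had 3, 0, 0 and 38 counts and 84, 3, 1 and 0 counts, in the same order. Infarction library 4 and Irx3 library 1 had the most counts of both ligands in their groups.

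The receptor Cxcr2 showed the same libraries. It was at 0, 0.816, 0.205 and 0.348 CPM in sham, 1.03, 0.610, 0 and 12.5 CPM after infarction, and 2.62, 0.479, 0.708 and 0.684 CPM in the Irx3 group. The call for infarction against sham (3.32 ± 1.28, edgeR adjusted p = 0.0463) ended without infarction library 4, at 0.59 (adjusted p = 0.668). It also ended without any 1 of the 4 sham libraries (2.92 to 4.21) or of Irx3 libraries 2, 3 and 4 (3.28 to 3.32). The vector difference was -1.64 ± 1.11 (edgeR adjusted p = 0.236). Neutrophil markers summed to 4.44 to 9.48 CPM in sham, 8.94 to 138 CPM after infarction and 8.44 to 52.6 CPM in the Irx3 group, and both maxima were those libraries. Of 5 tested markers 1 rose and 0 fell after infarction, beside 26.3% and 22.4% of all genes. After GC correction 2 rose and 0 fell, beside 30.6% and 22.2%. The median log2 fold change of the 5 markers was above 0 both before and after the correction. The defining marker Ly6g was at 0 in 10 of 12 libraries. The part of neutrophils in these values was not tested.

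Promoter sequence was available for 39 members in the RefSeq promoter table (build GRCm38.p6), and 53 of 54 members matched a RefSeq symbol. The genes of Cxcl1, Cxcl2 and Cxcl3 lie in 1 cluster, and their proximal promoters are shown because they share a sequence. Within 250 bases before the start, on either strand, a form of the NF-kappaB motif (GGGA, any base, then TTTCC) was found in Cxcl1, Cxcl2, Cxcl3 and Ccr3, and in 0.356% of 32851 promoters. A match describes letters only. The 120 bases before each start follow, 5′ to 3′ on the gene's strand, with the match in capitals. Cxcl1 is at chr5:90891125-90891244 (+), Cxcl2 at chr5:90903779-90903898 (+) and Cxcl3 at chr5:90785981-90786100 (+).
Cxcl1: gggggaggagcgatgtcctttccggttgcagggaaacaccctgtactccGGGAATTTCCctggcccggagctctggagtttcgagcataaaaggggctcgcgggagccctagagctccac
Cxcl2: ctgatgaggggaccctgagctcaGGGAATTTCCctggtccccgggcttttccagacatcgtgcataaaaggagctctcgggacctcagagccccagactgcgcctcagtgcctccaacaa
Cxcl3: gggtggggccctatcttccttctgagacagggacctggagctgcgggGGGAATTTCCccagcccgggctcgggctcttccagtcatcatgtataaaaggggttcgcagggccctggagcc

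CXCR3 ligands, which are induced by interferons and draw effector T cells and NK cells, rose at both steps before GC correction. With the correction, Cxcl9 kept its call at the second step and Cxcl10 did not. Cxcl9 was at 1.47, 1.51, 1.02 and 2.36 CPM in sham, 2.31, 7.93, 6.89 and 4.75 CPM after infarction, and 8.89, 14.99, 53.2 and 27.4 CPM in the Irx3 group. All Irx3 libraries were above all infarction libraries, and infarction library 1 lay within the sham range. The log2 fold change between the infarcted groups was 2.26 ± 0.50 (edgeR adjusted p = 0.0024), and 1.61 after GC correction (adjusted p = 0.0224). The rise after infarction was 1.77 ± 0.55 (edgeR adjusted p = 0.017) and was not called without sham library 3 (1.61) or infarction library 2 (1.49).

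Cxcl10 was at 0.0702, 0.314, 0 and 0.209 CPM in sham, 2.62, 5.37, 3.47 and 4.86 CPM after infarction, and 5.13, 6.18, 19.0 and 7.60 CPM in the Irx3 group. Sham stood apart from both infarcted groups, which overlapped. It rose 25.7-fold after infarction (4.69 ± 0.64 on the log2 scale, edgeR adjusted p = 0.00012). The Irx3 vector added 1.21 ± 0.43 (edgeR adjusted p = 0.0328), which did not pass after GC correction at 1.02 (adjusted p = 0.0975). Nor did it pass without infarction library 1 (1.05), infarction library 3 (1.15) or Irx3 library 3 (0.63, adjusted p = 0.188). In the annotation used for lengths, exons of Cxcl10 share 133 bases with Art3 on the opposite strand. Whether counting used strand is not given in the sources used here, so reads of the overlapping genes cannot be told apart.

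The promoters of Cxcl9 and Cxcl10, neighbouring interferon-inducible genes, are shown because both members were called higher at both steps before GC correction. The call of Cxcl10 with the Irx3 vector did not hold after it. The core of the interferon-stimulated response element (GAAA and GAAA with NN between) was found before Cxcl10, Cxcl14 and Ccl19 and in 2.98% of all promoters. A looser NF-kappaB form (GGGA, then NNNN, then CC) includes every match of the stricter one. It was found before 18 of 39 members, Cxcl9 and Cxcl10 among them, and in 17.6% of all promoters. For every motif, members are counted by gene over their 46 promoters, whereas the percentages are per promoter. The 2 measures therefore cannot be compared directly. TTCNNNGAA (the GAS element) was found before Cxcl14, Ccl17, Ccr6 and Ccr1l1 and in 7.02% of all promoters. Matches are in capitals in the 250 bases before the starts of Cxcl9, chr5:92328080-92328329 (-), and Cxcl10, chr5:92348890-92349139 (-).
Cxcl9: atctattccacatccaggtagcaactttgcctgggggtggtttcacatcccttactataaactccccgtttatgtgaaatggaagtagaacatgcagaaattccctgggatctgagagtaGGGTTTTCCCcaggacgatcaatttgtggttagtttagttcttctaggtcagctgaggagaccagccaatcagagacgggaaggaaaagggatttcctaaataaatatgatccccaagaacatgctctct
Cxcl10: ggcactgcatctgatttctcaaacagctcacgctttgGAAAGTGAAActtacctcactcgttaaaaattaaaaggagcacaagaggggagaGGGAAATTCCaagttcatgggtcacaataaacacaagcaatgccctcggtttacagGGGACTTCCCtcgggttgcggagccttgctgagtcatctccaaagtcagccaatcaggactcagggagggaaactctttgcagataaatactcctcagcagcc

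The receptor Cxcr3 did not follow its ligands at the second step. It was at 0, 0.126, 0 and 0.626 CPM in sham, 0.772, 1.46, 2.45 and 3.25 CPM after infarction, and 3.16, 0.814, 2.94 and 1.98 CPM in the Irx3 group. The infarcted groups covered the same range. Cxcr3 rose by 3.36 ± 0.82 after infarction (edgeR adjusted p = 0.00447), or 5.27 without sham library 4, and differed by 0.16 ± 0.63 between the infarcted groups (edgeR adjusted p = 0.849). Markers of T and NK cells summed to 1.47 to 1.82 CPM in sham, 5.92 to 20.1 CPM after infarction and 14.8 to 26.8 CPM in the Irx3 group. All 10 of 10 tested markers rose after infarction, beside 26.3% of all genes. With the Irx3 vector 2 of 10 rose, beside 25.2% of all genes, or 3 after GC correction, beside 14.1%. Cd3d, Klrb1c and Gzma were at 0 in all sham libraries. The part of these cells in the CXCR3 ligand values was not tested.

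Ligands of CCR7 and CXCR5, which place lymphocytes and dendritic cells in lymphoid tissue, rose after infarction and showed no call with the Irx3 vector (0 of 3 tested). Ccl21a, made by lymphatic endothelium and stroma, was at 16.4, 14.9, 11.1 and 9.80 CPM in sham, 32.4, 11.8, 50.6 and 51.4 CPM after infarction, and 46.6, 35.0, 59.5 and 15.4 CPM in the Irx3 group. Infarction library 2 and Irx3 library 4 remained near the sham level. Its log2 fold change was 1.49 ± 0.44 after infarction (edgeR adjusted p = 0.0128), with no call without infarction library 4 (1.22, adjusted p = 0.0687). Between the infarcted groups it was 0.10 ± 0.42 (edgeR adjusted p = 0.86), and 0.68 after GC correction (adjusted p = 0.253). Near-identical copies Ccl21b and Ccl21d had 1 count each in all 12 libraries, and reads of these genes may have been divided or dropped in counting. Lymphatic endothelial markers summed to 138 to 174 CPM in sham, 128 to 167 CPM after infarction and 186 to 210 CPM in the Irx3 group, and their part in the Ccl21a values was not tested.

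Ccl19, the other CCR7 ligand, rose by 3.74 ± 0.90 (edgeR adjusted p = 0.00418), and Cxcl13, the B cell attractant, by 4.13 ± 1.32 (edgeR adjusted p = 0.0195). Cxcl13 lost its call without sham library 3 or 4 or infarction library 2 or 4, at 3.27 to 3.78. The receptor Ccr7 went from 0, 0.126, 0.137 and 0.0695 CPM in sham to 1.29, 1.52, 1.82 and 2.32 CPM after infarction. In the Irx3 group it was at 1.18, 0.335, 1.09 and 0.988 CPM. All Irx3 libraries lay between the sham and the infarction ranges. Ccr7 rose by 4.26 ± 0.58 after infarction (edgeR adjusted p = 0.000117). The difference with the Irx3 vector, -0.96 ± 0.42, did not pass (edgeR adjusted p = 0.0726), nor did it after GC correction at -0.56.

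Cxcl12, the ligand of CXCR4 that holds progenitors and leukocytes in tissue, had the highest CPM of any ligand in every library and did not pass the test in any contrast. It was at 207, 212, 170 and 181 CPM in sham, 151, 191, 144 and 206 CPM after infarction, and 255, 184, 159 and 225 CPM in the Irx3 group. Its log2 fold changes were -0.16 ± 0.17 after infarction (edgeR adjusted p = 0.465) and 0.25 ± 0.17 with the Irx3 vector (edgeR adjusted p = 0.229). It made up 74.0% to 78.4% of all ligand CPM in sham, 41.4% to 59.7% after infarction and 30.9% to 57.0% in the Irx3 group. CPM does not correct for transcript length, and per kilobase Ccl21a lay above Cxcl12 in both infarcted groups, at 42.0 against 30.7 and 45.0 against 36.6 CPM per kb.

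Its receptor Cxcr4 rose after infarction and was lower with the Irx3 vector. It was at 3.93, 4.84, 3.55 and 4.80 CPM in sham, 17.7, 21.5, 17.6 and 30.7 CPM after infarction, and 18.3, 9.10, 11.2 and 7.07 CPM in the Irx3 group. Irx3 libraries 2, 3 and 4 lay between the sham and infarction ranges, and Irx3 library 1 lay within the infarction range. Cxcr4 rose 5.10-fold after infarction (2.35 ± 0.29 on the log2 scale, edgeR adjusted p = 5.66e-05). With the Irx3 vector it fell by 0.93 on the log2 scale (SE 0.27, edgeR adjusted p = 0.011), and by 1.25 after GC correction (adjusted p = 0.008). The fall was called in all 12 fits that left out 1 library. Without infarction library 4 and Irx3 library 4 together it was -0.56 and did not pass (adjusted p = 0.0584).

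Cxcl16, a ligand anchored in the membrane that binds CXCR6, rose 8.21-fold after infarction (3.04 ± 0.29 on the log2 scale, edgeR adjusted p = 1.87e-05). Sham libraries were at 5.55, 5.97, 6.76 and 4.94 CPM, infarction libraries at 38.6, 37.6, 48.5 and 66.1 CPM, and Irx3 libraries at 49.2, 32.3, 53.9 and 21.1 CPM. Sham was far below both infarcted groups, which overlapped (-0.28 ± 0.26, edgeR adjusted p = 0.38). Exons of Cxcl16 share 552 bases with Zmynd15 on the opposite strand. Its receptor Cxcr6 was at 0.772, 1.26, 0.205 and 0.417 CPM in sham, 1.23, 2.44, 2.16 and 2.22 CPM after infarction, and 3.41, 0.958, 2.94 and 4.18 CPM in the Irx3 group. Cxcr6 rose by 1.58 ± 0.52 after infarction (edgeR adjusted p = 0.0225), a call that ended without sham library 3 (1.28), sham library 4 (1.41) or infarction library 3 (1.49). It differed by 0.50 ± 0.47 between the infarcted groups (edgeR adjusted p = 0.39).

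Cxcl14, a homeostatic chemokine of epithelium and fibroblasts, was at 8.43, 19.4, 9.83 and 7.37 CPM in sham, 11.5, 12.3, 21.6 and 30.4 CPM after infarction, and 33.4, 24.9, 30.8 and 14.4 CPM in the Irx3 group. The groups overlapped. Against sham the difference was 0.75 ± 0.37 after infarction (edgeR adjusted p = 0.114), which passed without sham library 2 at 1.15 (adjusted p = 0.0221), and 1.20 ± 0.38 in the Irx3 group (edgeR adjusted p = 0.0132). Between the infarcted groups the difference was 0.45, or 0.99 after GC correction, and was not called either way (edgeR adjusted p = 0.0559 with the correction).

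Ccl27a and Ccl25, ligands of CCR10 and CCR9, were the remaining tested ligands. Ccl27a was at 4.77, 4.27, 4.505 and 4.87 CPM in sham, 2.47, 3.11, 2.39 and 2.58 CPM after infarction, and 3.36, 4.65, 3.05 and 4.26 CPM in the Irx3 group. Every infarction library was below every sham library, and the Irx3 libraries lay between or within those ranges. Its log2 fold change was -0.80 ± 0.20 for infarction against sham (edgeR adjusted p = 0.00446), and it rose by 0.54 ± 0.20 with the Irx3 vector (edgeR adjusted p = 0.0361). The latter was 1.14 after GC correction (adjusted p = 0.00204). It lost its call without sham library 4, infarction library 1, 3 or 4, or Irx3 library 2 or 4, at 0.44 to 0.53. Ccl27a has a near-identical copy, Ccl27b, with 2 counts in all, so its counts are uncertain where reads were divided between copies.

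Ccl25 was at 0.691 to 2.39 CPM in sham, 1.76 to 1.96 CPM after infarction and 2.89 to 3.90 CPM in the Irx3 group. The infarcted groups did not overlap, and the difference was 0.93 ± 0.29 (edgeR adjusted p = 0.0182). With a GC content of 39.2%, it turned to -0.20 after GC correction (adjusted p = 0.658). Its exons share 204 bases with Elavl1 on the opposite strand. The receptor Ccr10 did not pass in any contrast, with log2 fold changes of 0.06 ± 0.34 after infarction (edgeR adjusted p = 0.904) and -0.21 ± 0.34 with the Irx3 vector (edgeR adjusted p = 0.632).

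**Figure D3:**
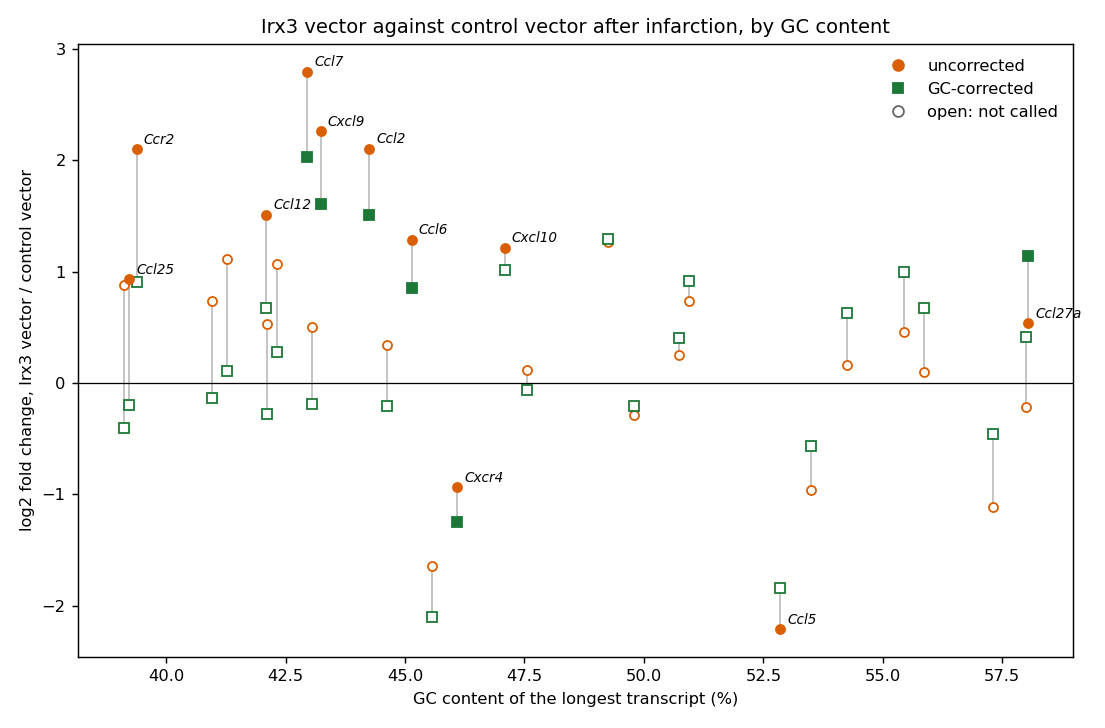
Log2 fold change of 30 of the 31 tested members for the Irx3 vector against the control vector after infarction, by GC content of the longest transcript, before (circles) and after (squares) GC correction, with lines that join the pair of values of 1 gene. Filled symbols were called: 11 before and 6 after. Ccr2 and Ccl25, at 39.4% and 39.2% GC, moved down most among the called members drawn, and Ccl27a at 58.0% moved up.

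The 23 members that were not tested comprised 15 ligands and 8 receptors, and 14 of them had no count in sham. Ccl20, the CCR6 ligand, was at 0 in all 12 libraries, which allows up to 0.0147 CPM over 203564083 counts. A further 8 had 1 to 5 counts in all: Cxcl17, Ccl1, Ccl26, Cxcl15, Ccl27b, Ccr3, Ccl21d and Ccl21b. The remaining ones, beside Cxcl2, Cxcl3, Ccl24 and Ccl3, had these sums in sham, infarction and Irx3 libraries: Ccl17 4, 26 and 20, Ccl28 5, 23 and 18, Ccr9 6, 11 and 19, and Cxcr5 7, 12 and 11. For Ccr1l1 they were 0, 2 and 20, for Cxcl11 0, 7 and 14, for Ccr8 0, 10 and 7, for Cxcr1 0, 12 and 4, for Ccr4 0, 3 and 11, and for Ccr6 0, 5 and 2. Ccr1l1, a relative of Ccr1, was 10.01-fold higher in the Irx3 group than in the infarction group (95% counting interval 2.43 to 88.4). Its exact counts in the Irx3 libraries were 11, 6, 2 and 1. Members with at least 1 count numbered 27 to 39 per sham library, 37 to 44 per infarction library and 41 to 48 per Irx3 library.

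Compared per kilobase of the longest annotated transcript, the order of levels changed with infarction. In sham, Cxcl12 was highest at 34.2 CPM per kb, followed by Ccl21a at 14.99, Cxcl14 at 6.16, Ccl6 at 5.38 and Ccl27a at 4.62 CPM per kb. After infarction the order was Ccl21a at 42.0, Cxcl12 at 30.7, Ccl5 at 18.0, Cxcl16 at 17.7 and Ccl8 at 17.4 CPM per kb, with Ccl5 set by infarction library 4. In the Irx3 group it was Ccl21a at 45.0, Cxcl12 at 36.6, Ccl6 at 21.5, Ccl8 at 18.8 and Cxcl16 at 14.5 CPM per kb. Ligands other than Cxcl12 summed to 49.9 to 74.7 CPM in sham, 129 to 291 CPM after infarction and 170 to 357 CPM in the Irx3 group. Receptors summed to 7.51 to 12.7 CPM, 40.1 to 91.9 CPM and 58.1 to 139 CPM in the same order.

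**Figure D4:**
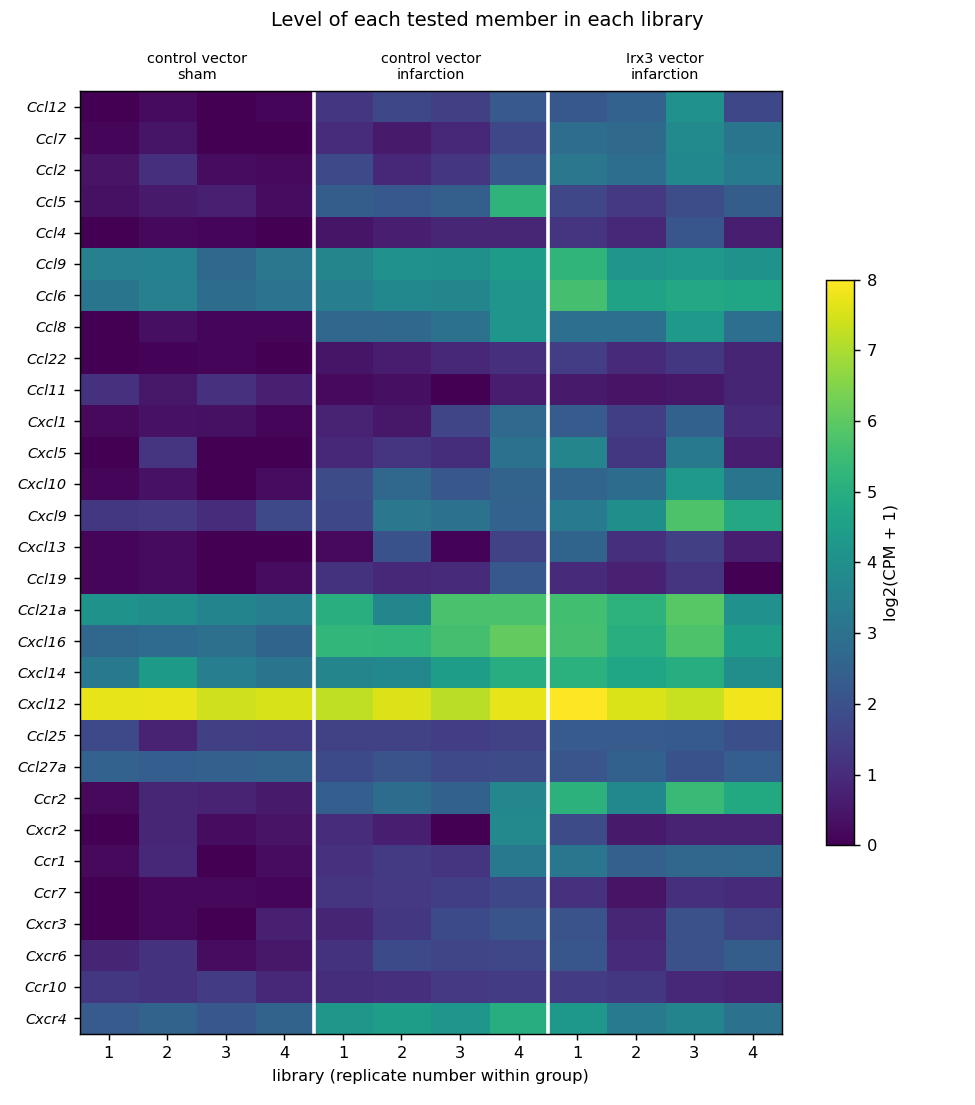
Level of 30 of the 31 tested members in each of the 12 libraries as log2(CPM + 1), with genes in the same role order as the plot of fold changes and white lines between groups. Cxcl12 is the brightest in every library, the sham libraries are dark for most inflammatory members, and infarction library 4 and Irx3 libraries 1 and 3 are brighter than the others of their groups.

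Genes that lie next to each other did not all move together. In the RefSeq gene order (GRCm38.p6), Ccl2, Ccl7, Ccl11, Ccl12, Ccl8 and Ccl1 are consecutive. Within this run, Ccl2 and Ccl7 rose at both steps, Ccl12 did so before GC correction only, Ccl8 rose at the first step only and Ccl11 fell at the first. In the run of Ccl5, Ccl9, Ccl6, Ccl3 and Ccl4, the tested members all rose after infarction, and with the Irx3 vector Ccl6 rose and Ccl5 fell. The fall of Ccl5 was called before GC correction only, and not without infarction library 4 or Irx3 library 2. In the receptor run of Ccr1, Ccr1l1, Ccr3 and Ccr2, both tested members, Ccr1 and Ccr2, rose after infarction, and Ccr2 rose again before GC correction.

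Other genes of the chemokine system mostly rose after infarction. Of 13 tested relatives and scavenging receptors, 8 rose and 1 fell in that contrast, beside 26.3% and 22.4% of all genes. With the Irx3 vector 1 rose and 3 fell, beside 25.2% and 24.1% of all genes, and the median log2 fold change was -0.36. Cx3cr1, the fractalkine receptor of monocytes and macrophages, was at 0.351, 0.628, 1.71 and 0.278 CPM in sham, 8.28, 9.82, 10.5 and 19.0 CPM after infarction, and 44.8, 24.5, 45.2 and 20.4 CPM in the Irx3 group. As for Ccr2, the 3 groups did not overlap. Cx3cr1 rose by 3.99 ± 0.49 after infarction (edgeR adjusted p = 6.16e-05) and by a further 1.502 ± 0.38 with the Irx3 vector (edgeR adjusted p = 0.0058), or 1.62 after GC correction (adjusted p = 0.00977). Its ligand Cx3cl1 rose by 2.66 ± 0.29 after infarction (edgeR adjusted p = 3.11e-05) and differed by -0.50 ± 0.27 with the vector (adjusted p = 0.139).

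Atypical receptors, which take up chemokines without G protein signalling, fell with the Irx3 vector in 2 of 4 cases. Of all genes, 24.1% fell in this contrast, or 13.3% after GC correction, and 4 genes are too few to be told apart from these shares. Ackr4, which clears Ccl19 and Ccl21, rose by 1.72 ± 0.17 after infarction (edgeR adjusted p = 1.97e-05) and fell by 1.20 with the vector (SE 0.16, adjusted p = 0.000111), or by 1.55 after GC correction. Ackr3, which clears Cxcl12, fell by 0.49 with the vector (SE 0.18, edgeR adjusted p = 0.0355), and was at -0.49 after GC correction (adjusted p = 0.0363). Ackr1 and Ackr2 did not pass, at -0.78 and -0.68 (edgeR adjusted p = 0.368 and 0.137). The chemerin-binding receptor Ccrl2 fell by 0.75 (adjusted p = 0.0394), but not after GC correction (adjusted p = 0.0539).

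Signalling genes downstream of the receptors rose with infarction. Of 30 tested, 24 rose and 0 fell, beside 26.3% and 22.4% of all genes, among them Pik3cg at 2.40 ± 0.26, a leukocyte phosphoinositide 3-kinase, and Dock2 at 2.44 ± 0.29 (edgeR adjusted p = 2.92e-05 and 4.66e-05). With the vector, 3 rose and 8 fell, beside 25.2% and 24.1% of all genes, or 2 and 3 after GC correction, beside 14.1% and 13.3%. Cdc42, a GTPase of cell polarity, rose by 1.21 ± 0.14 (edgeR adjusted p = 4.39e-05), or 0.47 after correction. The receptor kinases Grk2 and Grk6 fell by 0.69 and 0.63 (edgeR adjusted p = 0.00109 and 0.00304), and were at -0.11 and -0.02 after correction.

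Known regulators of chemokine genes were taken as 1 list of NF-kappaB and interferon factors, Cebpb, the feedback inhibitors Nfkbia and Tnfaip3 and the cytokines Tnf and Il1b. Of 16 tested, 12 rose after infarction and 0 fell, beside 26.3% and 22.4% of all genes. Irf7 and Irf8, which act in interferon responses, rose by 4.05 ± 0.30 and 2.01 ± 0.27 (edgeR adjusted p = 8.66e-06 and 0.000107). With the vector 1 rose and 5 fell, beside 25.2% and 24.1% of all genes, or 1 and 2 after GC correction, beside 14.1% and 13.3%. Nfkbia, the inhibitor of NF-kappaB and itself a target of it, was at 89.1 to 160 CPM after infarction and 24.5 to 34.2 CPM in the Irx3 group. It fell by 1.95 (SE 0.17, edgeR adjusted p = 1.20e-05), or by 1.60 after GC correction. Rel rose by 1.53 ± 0.21 (edgeR adjusted p = 0.000121), or 0.78 after correction, and Nfkb2 fell by 0.80 (SE 0.16, adjusted p = 0.00152), with -0.13 after correction.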

How the data were processed

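The deposited values were raw read counts per gene, made by the authors from polyadenylated RNA of left ventricle. Reads had been trimmed with fastp and placed on build GRCm39 (mm39), per the submitters' processing notes. Aligner, counter, annotation and strandedness are not given in the sources. All 12 libraries held 13352604 to 19236721 counts, and intervals and floors of 3 counts cover counting error only. The labels give 1 batch. Replicates are treated as separate mice, as the design text implies by 4 per group, and p-values measure the spread between these libraries. No pair of libraries within a group agreed within sampling noise.

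The quasi-likelihood test of edgeR 4.0.16 (R 4.3.3) was run on all 12 libraries with a mean for each group, which left 9 residual degrees of freedom, after filterByExpr and TMM scaling and with robust dispersion estimates. A call needed an adjusted p (Benjamini-Hochberg over 15742 genes) under 0.05. CPM uses TMM-scaled library sizes. GC correction used a natural spline with 6 degrees of freedom in each library on the GC content of the longest GENCODE M21 transcript, for 96.5% of genes tested. Transcript lengths came from the same source. The scripts were tested on simulated data.

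Alternatives were DESeq2 1.42.0, other scaling factors, no filter, the compared groups alone, removal of mitochondrial genes, GC correction, a replicate block and leaving out each library. Leaving out replicate 4 of both infarcted groups was added after seeing the data. Per-library values are given for the 6 ligands and 6 receptors with the highest mean CPM and the 6 members with the smallest p in each direction and contrast, and for further members as the text describes. Members and gene lists were chosen with earlier results of these data known. Values of 1 member and 2 other listed genes are not reported here, though counts and sums include them and figures leave them out.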

Additional observations from a re-analysis of the deposited data

Results flagged for a closer look

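In 8 of 63 sets of 4 libraries of 1 member, a single library stood apart from the rest by Dixon's criterion at its 95% level. The sets cover members chosen by level or p-value, not all tested members, and they share the same libraries. The rate of about 1 set in 20 holds for independent normal values, so the 8 sets cannot be compared with it. Infarction library 4 was high for 4 members. It had 8.37 CPM of Ccr1 against 1.18 to 1.59 CPM in the others of its group, 12.5 CPM of Cxcr2 against 0 to 1.03 CPM, 17.6 CPM of Ccl8 against 5.30 to 7.12 CPM, and 35.9 CPM of Ccl5 against 3.60 to 4.38 CPM. Irx3 library 1 was high for 3 members, with 48.5 CPM of Ccl6 against 23.3 to 27.4 CPM, 36.7 CPM of Ccl9 against 16.4 to 19.1 CPM, and 2.62 CPM of Cxcr2 against 0.479 to 0.708 CPM. Irx3 library 3 had 18.7 CPM of Ccl8 against 6.52 to 6.66 CPM.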

How the results depend on the processing

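RLE factors and removal of mitochondrial genes left all member calls in place. DESeq2 gave no adjusted p, and so no call, for Ccl5 in each contrast, and kept the other calls. GC correction gave 5 higher and 1 lower with the Irx3 vector in place of 10 and 2, took members above 0 from 24 to 18 of 31, and turned the sign of the called Ccl25 (-0.20). Among uncalled members it turned others, such as Ccl9 (-0.28), Ccr1 (-0.41), Cxcr6 (-0.19) and Ccl8 (-0.0599). It also turned Ccl27a in the Irx3 group against sham (0.34). The cause was not tested. Members lower with the Irx3 vector numbered 1 by DESeq2, 1 with no filter, 1 without replicate 4 of both infarcted groups and 1 when that was joined to GC correction. With the compared groups alone, members higher after infarction numbered 18 (Ccl7, Cxcl1, Cxcr2, Cxcl13, Ccl4 and Ccl22 were lost) and lower 1. With no filter, Ccl21a, Cxcl9, Cxcr2 and Cxcl13 lost their calls after infarction, and Ccl5, Cxcl10, Ccl27a and Ccl12 theirs with the vector. Without replicate 4 of both infarcted groups, 14 members were higher with the vector. Among them were Cxcl14, Ccl9, Ccr1, Cxcl1 and Ccl4, which were not called with all libraries. Shares of all genes called were taken only for the edgeR fit described above and its GC-corrected form. Member counts of the other fits, here and below, therefore have no such share beside them. With no filter, 1 member was lower in the Irx3 group against sham, and without replicate 4 of both infarcted groups it was 1, or 2 with GC correction. Leaving out replicate 4 of both infarcted groups turned Cxcl16 (0.12) and Cxcr2 (1.19) between the infarcted groups. With GC correction as well, Cxcl16 was 0.21, Cxcr2 0.87, Cxcr6 -0.26 and Ccl27a against sham 0.28.

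Same-numbered libraries did not deviate together (2 of 12 pairs correlated above 0.1, and 0 of 12 libraries were closest to their own number), so the numbers were not taken as pairs. A replicate block gave 21 higher and 2 lower after infarction, 7 and 2 with the Irx3 vector and 25 and 0 against sham. The replicate block with GC correction gave 1 lower after infarction, 3 higher and 1 lower with the Irx3 vector, Ccl9 at -0.33, Cxcr6 at -0.19 and Ccl27a against sham at 0.32. Between the infarcted groups the block lost Cxcl10, Ccl27a and Ccl12.

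Leaving out 1 library gave 18 to 25 members higher and 1 to 3 lower after infarction, 7 to 12 higher and 1 to 2 lower with the Irx3 vector, and 25 to 26 higher and 0 to 1 lower against sham. No call turned its sign. Uncalled differences that ranged over both signs between the infarcted groups included Ccl8 (-0.43 to 0.69), Ccl21a (-0.19 to 0.36), Cxcr2 (-2.52 to 1.05), Cxcr3 (-0.11 to 0.52) and Cxcl13 (-0.0864 to 1.56), and Cxcl12 did so against sham (-0.0783 to 0.15). In the Irx3 group against sham, Ccl19 (2.62, edgeR adjusted p = 0.0266) lost its call without sham library 1 (2.45) or 3 (2.22) or Irx3 library 1 (2.46) or 3 (2.15). Members under about 1 CPM rest on few counts, so depth limits what can be called.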

Other observations

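Several neutrophil-related transcripts were highest in the same library of each infarcted group. Csf3r, the receptor of granulocyte colony-stimulating factor, was at 10.6, 13.7, 8.199 and 70.0 CPM in the infarction libraries and at 26.8, 6.85, 19.6 and 4.26 CPM in the Irx3 libraries. The calprotectin gene S100a9 was at 1.29, 2.32, 0.114 and 22.3 CPM and at 9.23, 3.40, 2.83 and 1.22 CPM in the same order, and the protease gene Mmp9 at 1.85, 0.671, 0.455 and 27.6 CPM and at 9.48, 1.96, 1.80 and 1.37 CPM. Infarction library 4 and Irx3 library 1 were the highest of their groups for each of these 3 genes, as they were for Cxcr2, Cxcl2, Cxcl3 and Cxcl5. Among the other listed neutrophil markers, S100a8 and Mmp8 had the same order, but Ngp, Retnlg, Camp and Ly6g did not. Ngp was highest in infarction library 2 and Irx3 library 2. In the Irx3 group, Retnlg and Camp were highest in library 2 and Ly6g in library 3. Cxcl1 was highest in infarction library 4 but in Irx3 library 3. Infarction library 4 and Irx3 library 1 had the lowest summed cardiomyocyte markers of their groups, at 17639 and 25518 CPM. They also had the highest summed fibroblast markers, at 25535 and 16406 CPM.

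Of 10 tested markers of T and NK cells, 2 were called higher with the Irx3 vector, which did not exceed the 25.2% of all genes. After GC correction 3 of 10 were called higher, beside 14.1% of all genes. The 2 called before correction were Gzma at 2.94 ± 0.47 (edgeR adjusted p = 0.000635) and Nkg7 at 1.23 ± 0.45 (adjusted p = 0.0374). Gzma, a granzyme, was at 0 in sham, at 0.309, 0.488, 0.399 and 0.413 CPM after infarction and at 1.53, 2.97, 2.29 and 5.85 CPM in the Irx3 group, and Nkg7 was at 0.257, 0.671, 0.968 and 1.55 CPM and at 2.07, 1.53, 1.85 and 2.74 CPM. The infarcted groups overlapped for Nkg7. The median log2 fold change over the 10 tested markers was 0.91, or 0.54 after GC correction. Markers not called went both ways. Cd3d was at -0.16 and Cd4 at -0.57 (edgeR adjusted p = 0.823 and 0.267). Prf1 was at 0.257, 0.610, 0.683 and 1.55 CPM after infarction and at 1.68, 2.63, 1.74 and 1.98 CPM in the Irx3 group. Ncr1 was also higher in every Irx3 library than in any infarction library. Interferon gamma (Ifng), an inducer of Cxcl9, was at 0 in all sham libraries and at most 0.456 CPM in any library, too low to be tested.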
